A study of Mus musculus with 194 samples.

Results

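The replication-dependent histone genes were taken as every gene of the deposited expression table whose symbol begins with Hist1h, Hist2h, Hist3h or Hist4h. This gave 68 of 23420 genes, namely 6 genes for the linker histone H1 and 18, 19, 12 and 13 genes for the core histones H2A, H2B, H3 and H4. The H2B set includes Hist3h2bb-ps, a pseudogene by its symbol.

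These genes supply the histones that package newly copied DNA. They mostly lack introns, sit in clusters, are transcribed mainly in S phase, and their mRNAs are broken down as DNA synthesis ends. Unlike other mRNAs they normally end in a short stem-loop, bound by the protein SLBP, and carry no poly(A) tail. A library primed on poly(A), as here, may therefore hold only a part of the histone transcripts. Which part was captured was not tested, and the levels below are not those of all histone mRNA.

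Single cells were grown into lineages in a microfluidic trap array, where each lineage descends from 1 founding cell, and were released singly for RNA sequencing with Smart-Seq2, which copies polyadenylated RNA. The CD8+ T-cells were primary cells of C57BL/6J mice, activated for 30 h with antibodies against CD3 (5 μg per mL, plate-bound) and CD28 (2 μg per mL) and cultured in the device with IL2 at 100 U per mL. L1210 is a lymphocytic leukemia line from a DBA subline that divides without stimulation, so cell type, strain and culture differed together between the groups. The labels give neither the animal nor the culture of a lineage, so lineages served as the replicates. For comparisons on lineage means, p values cover the spread between lineages, not between mice. Likeness within lineages was tested on single cells, so there p values set lineages against the spread of cells within them.

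After doublets and libraries under 1000 detected genes were left out, 97 CD8+ T-cells in 34 lineages and 81 L1210 cells in 26 lineages remained (9 and 7 libraries left out). They had 2639 to 10905 and 1610 to 10454 genes above 0 TPM (transcripts per 1000000), a unit that corrects for transcript length but keeps no depth, so the number of reads behind a value cannot be read from it. Of the T-cell markers, Cd3e was above 0 in 97 of 97 CD8+ T-cells but in 0 of 81 L1210 cells. Cd8a was above 0 in 94 CD8+ T-cells and Cd8b1 in 93, and in 10 and 23 L1210 cells, where they reached 9.74 and 31.8 TPM. The summed TPM of these markers ran from 324 to 3654 in CD8+ T-cells and up to 35.04 in L1210 cells. L1210 cells carried markers of the B lineage, with Cd79a above 0 in 80, Cd79b in 79 and Igll1 and Vpreb1 each in 78 of 81 cells, while Ms4a1 was above 0 in 1. Of the 97 CD8+ T-cells, 47 were above 0 for Cd79b, up to 283 TPM, and 10 for Cd79a, while Igll1 and Vpreb1 were at 0 in all of them and Ms4a1 was above 0 in 1. Of 3 myeloid markers, Lyz2 was above 0 in 36 L1210 cells and in 0 CD8+ T-cells, Itgam in 6 and 10, and Csf1r in 1 and 2. The summed TPM of these 3 reached 110.3 in L1210 cells and 3.76 in CD8+ T-cells.

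The stem-loop was searched as the letters GGNNCTTTTCAGNNCC on the transcript strand of the GENCODE models on GRCm38, the build of the deposited values (mm10). It was found in 35 of the 68 histone genes (51.5%) and in 51 of 55341 genes of the annotation (0.0922%). A missing match says only that the model does not hold these letters. In all 34 matches on models of a single exon the window lay within an annotated UTR. The windows below show the loop in capitals after the 14 bases before it, for the genes of highest level that hold a match and for 3 genes of the comparisons that follow.
Hist1h2ao, chr13:21810884-21810913, plus strand: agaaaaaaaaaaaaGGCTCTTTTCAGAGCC
Hist1h2ap, chr13:21833029-21833058, minus strand: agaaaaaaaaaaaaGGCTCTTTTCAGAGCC
Hist2h3c2, chr3:96238485-96238514, minus strand: ccattccccacaaaGGCTCTTTTCAGAGCC
Hist1h2ae, chr13:23570668-23570697, minus strand: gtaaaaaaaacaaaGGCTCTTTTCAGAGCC
Hist1h3b, chr13:23752806-23752835, plus strand: aactggaacccaaaGGCTCTTTTCAGAGCC
Hist1h4d, chr13:23581936-23581965, plus strand: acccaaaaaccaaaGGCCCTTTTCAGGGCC
The windows of Hist1h2ao and Hist1h2ap were identical, and in both a run of 12 A stood directly before the loop. Runs of 10 or more A were found in only 2 other members, Hist1h2ac with 15 and Hist1h2be with 11. Both were at low levels, with mean TPM in CD8+ T-cells of 0.292 for Hist1h2ac and 0.686 for Hist1h2be, and of 1.45 and 1.16 for L1210 cells. Hist2h3b and Hist2h3c2, among the highest members, had longest runs of 5 and 3. Hist1h2ae, with a run of 8 A a few bases before its loop, had a mean of 34.35 TPM over all cells. Hist1h2ab, an H2A gene with a longest run of 4, was higher at 64 TPM. The part of such runs in which transcripts were captured was not tested.

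Histone transcripts of a few genes dominated both cell types. Hist1h2ao, Hist1h2ap, Hist2h3b and Hist2h3c2 held 76.7% of the summed histone TPM of CD8+ T-cells and, for L1210 cells, 75.8%. The highest was Hist1h2ao, a core H2A gene at chr13:21810465-21810944, above 0 in 96 of 97 CD8+ T-cells, where the median was 1307 TPM and the highest value 7535 TPM. In L1210 cells it was above 0 in 76 of 81 cells, with a median of 303 TPM and a highest value of 5323 TPM. The ranges of the cell types overlapped, and both began at 0.

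Hist2h3b, an H3 gene at chr3:96268654-96269141, ran from 0 to 2547 TPM around a median of 603.5 TPM in CD8+ T-cells and from 0 to 5016 TPM around a median of 306 TPM in L1210 cells. Hist2h3c2, an H3 gene of the same cluster at chr3:96238108-96239127, had medians of 289 TPM in CD8+ T-cells and 127 TPM in L1210 cells, with highest values of 1267 and 1728 TPM. Their levels rose and fell together over cells, with Spearman's rho of 0.944 over 97 CD8+ T-cells and 0.952 over 81 L1210 cells. The second H2A gene, Hist1h2ap, had medians of 164 and 38.4 TPM and reached 6717 TPM in a CD8+ T-cell. Its rho with Hist1h2ao was 0.295 in CD8+ T-cells and 0.338 among L1210 cells, against 0.355 and 0.831 between Hist1h2ao and Hist2h3b. Pairs of genes within a library share its depth and, for near-identical genes, its reads.

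How firmly a value belongs to a single gene differed. Of all 30-base words in the models of Hist1h2ao, 6.21% occurred in no other member and 93.8% also occurred in Hist1h2ap. The unique share was 19.4% for Hist2h3b and 35.7% for Hist2h3c2, whose remaining words were shared with Hist2h3c1. In 49 of the 68 genes at least 20% of the words were unique. The reads were 30 bases at each end and the authors' program divides shared reads by estimation, so the split between such neighbours is uncertain and class sums are given beside single genes. Hist1h2bq and Hist1h2br had equal values in every cell.

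The other members were far lower. Among H1 genes, whose products bind linker DNA, Hist1h1e had the highest mean, 39 TPM for CD8+ T-cells against 40.9 TPM for L1210 cells. Next to it were Hist1h1c at 8.39 and 25.9 TPM and Hist1h1b at 32.1 and 0 TPM. Behind the leading H2A genes, Hist1h2ab had means of 65.8 and 61.9 TPM. The leading H2B genes were Hist1h2bc at 5.70 and 44.01 TPM, Hist1h2bk at 31.8 and 8.84 TPM, and Hist1h2bj at 35.3 and 2.77 TPM. Hist1h3b was the third H3 gene at 24.4 and 77.04 TPM. The leading H4 genes were Hist1h4d at 52.9 and 106.4 TPM, Hist1h4i at 65.2 and 43.1 TPM, and Hist2h4 at 34.1 and 66.6 TPM. All 68 members were above 0 in at least 1 CD8+ T-cell, and 65 in at least 1 L1210 cell. A median CD8+ T-cell held 24 members above 0, within a range of 1 to 46, and a median L1210 cell 18 within 3 to 41.

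**Figure D1:**
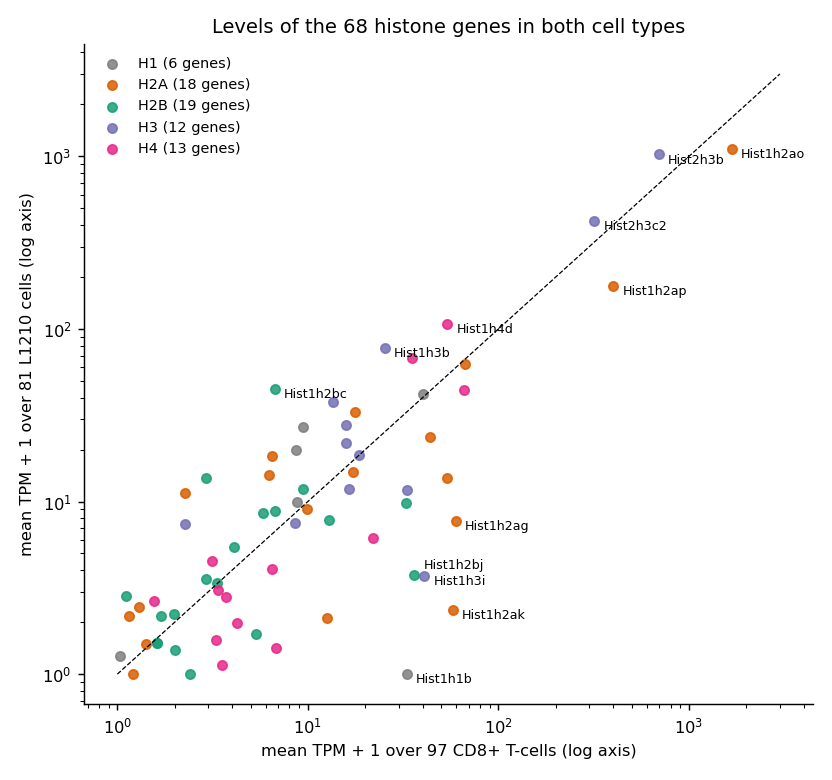
Mean TPM + 1 of each of the 68 histone genes over 97 CD8+ T-cells (horizontal, log axis) against that over 81 L1210 cells (vertical, log axis), 1 point a gene, coloured by histone class, with a dashed line of equal levels. Hist1h2ao, Hist2h3b, Hist1h2ap and Hist2h3c2 stand above all other members in both cell types, and Hist1h1b is listed at 0 in L1210 cells.

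By class, H2A took 60% and H3 29.7% of the histone TPM of CD8+ T-cells, with 4.97% for H4, 3.05% for H2B and 2.35% for H1. In L1210 cells H3 took 46.4% and H2A 41.2%, followed by H4 with 6.56%, H2B with 3.26% and H1 with 2.64%. Nucleosomes hold the core histones in equal number, and the unequal shares here describe the transcripts that the libraries captured. The sum over all members had a median of 3914 TPM in CD8+ T-cells, with the middle 50% of cells between 2468 and 5241 TPM. In L1210 cells the median was 1290 TPM and the middle 50% ran from 539 to 6124 TPM. The lineage means of its logarithm had an SD of 0.73 over 34 CD8+ T-cell lineages and of 1.13 over 26 L1210 lineages, on the ln(TPM + 1) scale used for every fit.

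CD8+ T-cells and L1210 cells were first compared gene by gene, on lineage means of ln(TPM + 1) with limma over 34 and 26 lineages. A gene entered when ln(TPM + 1) was above 1 in over 10% of the cells of a type, which 52 members did in CD8+ T-cells and 47 among L1210 cells, so 58 were tested. At a Benjamini-Hochberg adjusted p under 0.05 over 11373 genes, 17 members were higher in CD8+ T-cells and 7 were higher in L1210 cells. Of all genes tested, 13.5% were called higher in CD8+ T-cells and 50.1% higher in L1210 cells, 63.6% in all. The median difference, CD8+ T-cells minus L1210 cells, was 0.19 over the members and -0.41 over all genes, so the table as a whole was shifted towards L1210 cells.

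The H1 gene Hist1h1b was listed at 0 TPM in all 81 L1210 cells and was above 0 in 52 CD8+ T-cells, where its values ran to 454 TPM around a median of 7.15 TPM (adjusted p = 5.69e-09). No fold is given against a group at 0. The H2A gene Hist1h2ak was above 0 in 65 CD8+ T-cells, which ran to 302 TPM around a median of 32.6 TPM over all 97. It was above 0 in 4 L1210 cells, with a highest value of 40.9 TPM. The difference in lineage means was 2.49 ± 0.28 on the ln scale (SE, n = 60 lineages, adjusted p = 3.76e-12). For Hist1h2ag, another H2A gene, the median was 36.5 TPM in CD8+ T-cells, and 13 L1210 cells were above 0, the highest at 134 TPM. These cells overlapped in range, but the lineage means differed by 2.38 ± 0.28 (SE, adjusted p = 2.34e-11).

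Hist1h2bj, the H2B gene next to Hist1h2ag, was above 0 in 57 CD8+ T-cells, up to 295 TPM, and in 9 L1210 cells, up to 91.1 TPM, with a difference of 2.19 ± 0.26 (SE, adjusted p = 4.33e-11). The H3 gene Hist1h3i was above 0 in 54 CD8+ T-cells and 6 L1210 cells and differed by 1.80 ± 0.29 (SE, adjusted p = 2.01e-07). The other H2A genes higher in CD8+ T-cells were Hist1h2ae at 1.72, Hist1h2ao at 1.17, Hist1h2ap at 1.12, Hist1h2ad at 0.87 and Hist1h2ai at 0.72. Of the H2B genes, Hist1h2bk was higher by 1.21, Hist1h2bg by 0.73 and Hist1h2bm by 0.44. The H3 gene Hist1h3c was higher by 1.40, and the H4 genes Hist1h4m, Hist1h4j and Hist1h4h by 1.05, 0.45 and 0.36.

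L1210 cells were higher in Hist1h2bc, an H2B gene, which was above 0 in 44 of 81 L1210 cells with a median of 10.4 TPM and a highest value of 799 TPM. In CD8+ T-cells 21 of 97 cells were above 0, the highest at 132 TPM, and the difference was -1.34 ± 0.33 (SE, adjusted p = 3.05e-04). Hist3h2a, the H2A gene of the small cluster on chromosome 11, was above 0 in 45 L1210 and 26 CD8+ T-cells, a difference of -1.04 ± 0.22 (SE, adjusted p = 4.06e-05). The others were the H1 gene Hist1h1a at -1.02, the H2B gene Hist2h2be at -0.90, the H3 genes Hist1h3d at -0.69 and Hist2h3c1 at -0.55, and the H2A gene Hist2h2ac at -0.69. Neither Hist2h3b nor Hist2h3c2 was called.

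The calls were laid out by place in the genome, a grouping chosen after the values were seen and given with no test. In the stretch chr13:21715763-22043676, which holds 23 members, 12 of 22 tested members were higher in CD8+ T-cells and 0 were higher in L1210 cells. In the stretch chr13:23531050-23934851, with 31 members, 5 of 26 were higher in CD8+ T-cells and 3 were higher in L1210 cells. On chromosome 3, 3 of 8 tested members were higher in L1210 cells and 0 in CD8+ T-cells. Of all genes tested, 50.1% were called higher in L1210 cells and 13.5% higher in CD8+ T-cells, so the 3 of 8 do not exceed the share of all genes. Hist1h2ak, Hist1h1b, Hist1h3i, Hist1h2ag and Hist1h2bj, which had the 5 lowest p values of the members, lie in the first stretch. Of these, all but Hist1h2ag passed the filter in CD8+ T-cells only, as did Hist1h2ai, Hist1h2bm, Hist1h4j and, in the second stretch, Hist1h4h. Hist2h3c1 passed it in L1210 cells only. Each of them entered the test only through the group where it is high, so these calls are not independent of the filter. The reference is C57BL/6J and L1210 comes from a DBA strain, and differences between the strains in the histone genes cannot be told apart here from differences between the cell types. With hours since division and their square as covariates, 13 members were higher in CD8+ T-cells and 9 were higher in L1210 cells, and with detected genes as covariate 21 and 5. The shares of all genes given earlier belong to the fit without covariates and are no background for these counts. With the hours covariates Hist1h2ao and Hist1h2ap were not called (adjusted p = 0.0849 and 0.108).

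**Figure D2:**
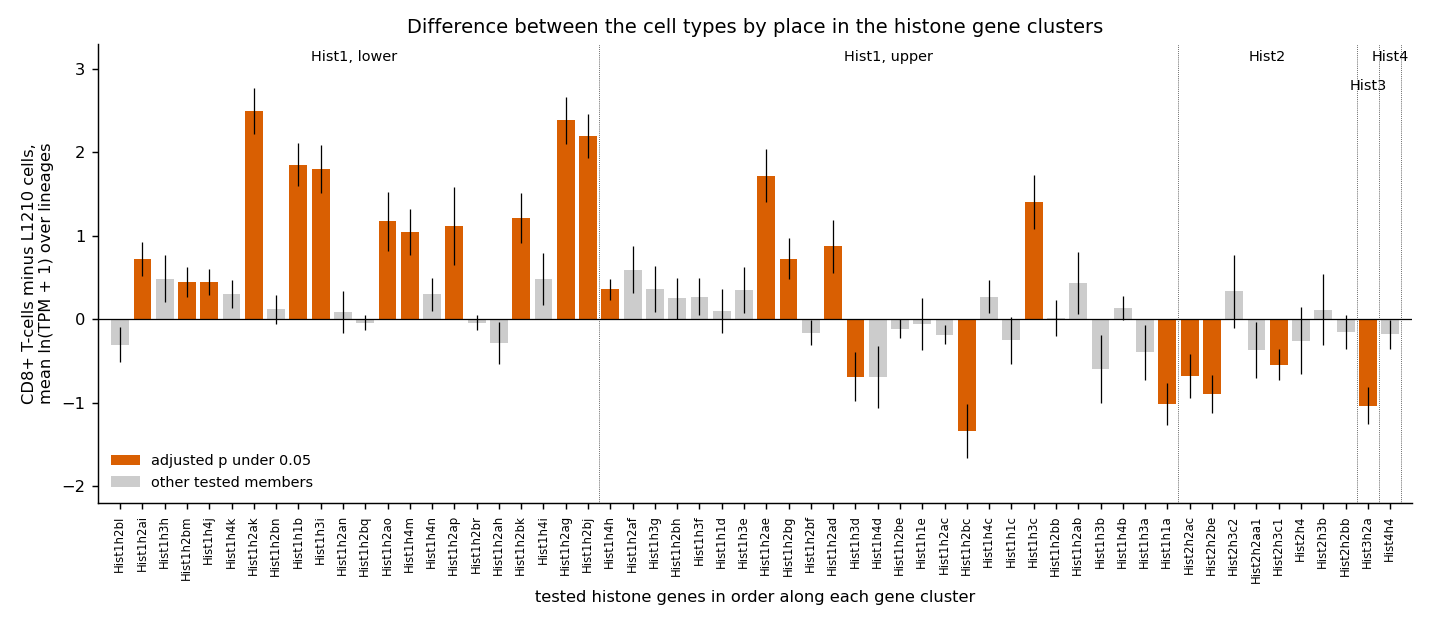
Difference in mean ln(TPM + 1) between CD8+ T-cell and L1210 lineages (bars, with SE) for the 58 tested members, in genomic order within the lower and the upper stretch of the Hist1 cluster and the Hist2, Hist3 and Hist4 clusters, with called members in orange. In the lower Hist1 stretch all 12 called members are higher in CD8+ T-cells, and in the Hist2 cluster all 3 are higher in L1210 cells. Of all genes tested, 13.5% were called higher in CD8+ T-cells and 50.1% higher in L1210 cells.

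The time since division was recorded for 94 CD8+ T-cells, between 0.5 and 9.48 h, and for all 81 L1210 cells, between 0.354 and 12.8 h. In both cell types summed histone TPM was low soon after division, high in the middle of the recorded times and spread widely afterwards. In CD8+ T-cells the median sum was 1306 TPM in 18 cells up to 2.5 h. It was 4757 TPM in 37 cells between 2.5 and 5 h and 4009 TPM in 32 cells between 5 and 7.5 h. After that it was 2041 TPM in 7 cells, which came from 2 lineages. In L1210 cells it was 591 TPM in 25 cells, 3637 TPM in 22 cells, 6133 TPM in 12 cells and 1656 TPM in 22 cells over the same windows.

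Boundaries read from the values split the cells more sharply than these windows, which follows in part from that choice and was not tested. The counts are of cells, which share lineages. The L1210 cells up to 3 h came from 10 lineages and those after 8 h from 9. Up to 3 h after division, 29 of 33 L1210 cells summed to less than 1500 TPM, with a median of 523 TPM. All 4 exceptions belonged to lineage L11, whose cells, released between 0.354 and 1.79 h after division, summed to 9926, 10383, 10757 and 13187 TPM. No L1210 cell was recorded between 2.86 and 3.78 h. Between 3 and 8 h, 28 of the 30 cells, which came from 10 lineages, were above 2000 TPM, with a median of 6055 TPM. After 8 h, 7 of 18 cells were above 2000 TPM and the other 11 below 1500 TPM. The cells of the last window thus fell into a high and a low set with none between.

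In CD8+ T-cells all 51 cells between 2.4 and 6 h, which came from 16 lineages, were above 2000 TPM, the lowest at 2621 TPM. Up to 2.4 h 5 of 17 cells were above 2000 TPM and 9 below 1500 TPM, and after 6 h 18 of 26 were above 2000 TPM and 5 below 1500 TPM. Genes detected per cell had medians of 8156 in the early L1210 cells outside L11, 8500 between 3 and 8 h and 8732 after 8 h. The cells of L11 had 9380 to 10430 detected genes, against at most 9158 in the other early cells. Over cells, the histone sum had a Spearman's rho with detected genes of 0.375 in L1210 cells and -0.0922 in CD8+ T-cells. The part of detected genes in the level of L11 was not tested.

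**Figure D3:**
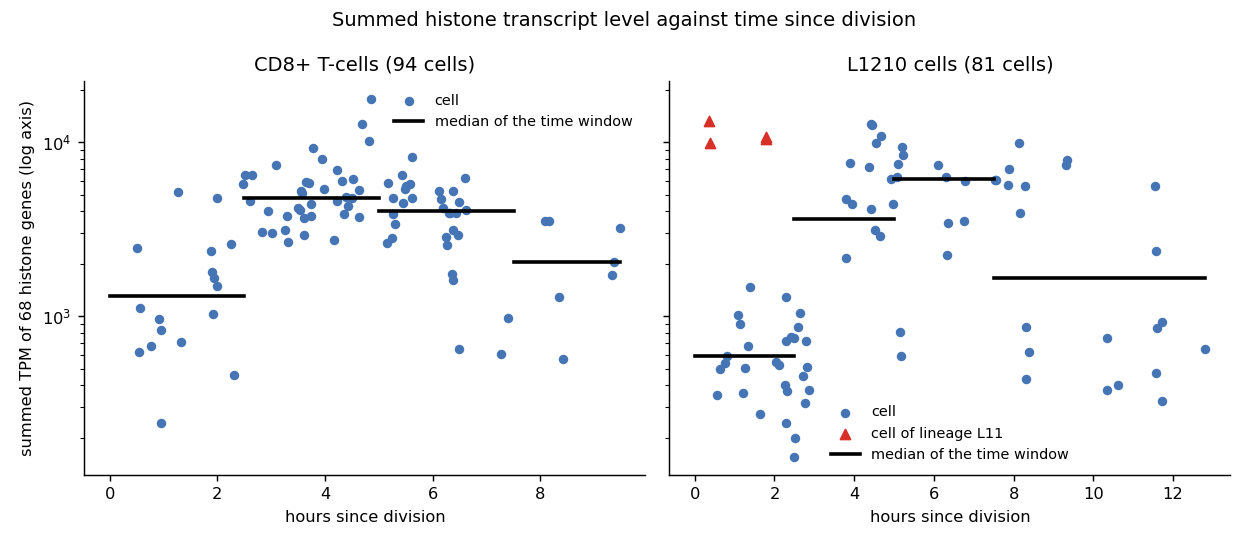
Summed TPM of the 68 histone genes (log axis) against hours since division for 94 CD8+ T-cells and 81 L1210 cells, 1 point a cell, with the median of each time window as a black line and the 4 cells of L1210 lineage L11 as red triangles. Outside L11 the L1210 cells up to 3 h sit below 1500 TPM, and 28 of 30 cells between 3 and 8 h sit above 2000 TPM.

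Hist1h2ao, Hist2h3b and the H1 gene Hist1h1e rose and fell with the sum. Hist1h2ao had median levels of 410, 1785, 1340 and 1062 TPM over the 4 windows in CD8+ T-cells and of 173, 854, 1705 and 223 TPM in L1210 cells. For Hist2h3b the medians were 125, 814, 652 and 384 TPM in CD8+ T-cells and 74.9, 888, 1404 and 450 TPM in L1210 cells. The linker gene Hist1h1e went from 13 to 55.6, 30.0 and 9.14 TPM in CD8+ T-cells and from 9.14 to 53.3, 46.5 and 17.2 TPM in L1210 cells. Hist1h1c, another leading H1 gene, did not follow the sum in CD8+ T-cells, with medians of 6.345, 1.39, 5.67 and 0 TPM. In L1210 cells its medians were 0, 30.55, 10.79 and 11.83 TPM. The H4 gene Hist1h4i did not follow the sum either, with medians of 45.9, 32.1, 51.9 and 0 TPM in CD8+ T-cells. Its medians in L1210 cells were 38.1, 50, 20.02 and 23.3 TPM. Among the class sums H2B moved least, with medians of 87.8, 77.1, 119 and 59.9 TPM in CD8+ T-cells. In L1210 cells the H2B medians were 50.1, 99.2, 164 and 93.1 TPM.

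These courses were tested with limma on lineage means. For a straight slope over hours, 0 of 47 members were called in 26 L1210 lineages (background 0% of 10536 genes) and 0 of 52 in 31 CD8+ T-cell lineages (background 0.09% of 9997 genes, 0.04% rising and 0.05% falling). At an unadjusted p under 0.05 there were 1 member in L1210 cells and 5 in CD8+ T-cells, against 5.58% and 12.9% of all genes, so the members did not stand above the background. For a slope with a squared term, 0 members were called in either cell type, against 0% of all genes in L1210 cells and 0.13% in CD8+ T-cells. Curved fits on cells with lineage as a random block called 0 members in L1210 cells and Hist1h2ao and Hist2h3c2 in CD8+ T-cells. Straight fits of this kind called 0 in both. The shares of all genes above belong to the fits on lineage means and are no background for these fits on cells.

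The closest to a call were Hist1h2ao in CD8+ T-cells (adjusted p = 0.0588, n = 31 lineages) and Hist2h3c2 (adjusted p = 0.110). In L1210 cells no member had an adjusted p below 0.808. Without correction, 19 of 47 members (40.4%) in L1210 cells and 13 of 52 in CD8+ T-cells had p under 0.05 in the curved fit, where all genes gave 4.99% and 12.4%. The squared term was negative, a level highest in between, in 44 of 47 members in L1210 cells, where 39.5% of all genes had a negative term. In CD8+ T-cells it was negative in 44 of 52 members and in 62.1% of all genes. Members are measured in the same cells, so these shares are a description of the list and not independent repeats. Without lineage L11, a choice made after its values were seen, 25 of 47 members in L1210 cells had an unadjusted p under 0.05, against 608 of 10572 genes, and still 0 were called. The slopes of the cell types were compared in 1 fit, which called 0 of 58 members (background 0.00879%), with 3 at an unadjusted p under 0.05 against 1229 of 11373 genes.

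Lineage and time were largely one measure, since cells of a lineage were released at similar times after division. Hours since division had an SD of 3.38 h over L1210 cells and 0.685 h within lineages, and of 2.13 h and 0.264 h in CD8+ T-cells.

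Cells of a lineage were alike in part of the histone transcripts. Likeness was tested with limma's F over lineages with at least 2 cells, 79 cells in 24 lineages of L1210 and 90 cells in 27 lineages of CD8+ T-cells. In L1210 cells 20 of 47 members were called, where 13.4% of 10536 genes were. The intraclass correlation, the share of variance that lies between lineages, had a median of 0.20 over the members tested and 0.11 over all genes. Hist2h3b had the second and Hist2h3c2 the third lowest p of all 10536 genes, with F of 10.3 and 9.33, intraclass correlations of 0.71 and 0.69, and adjusted p values of 1.56e-10 and 1.03e-09. Both had been picked for description with this pattern known, so their rank is not independent support.

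The 4 cells of lineage L11 had 3254, 3278, 3614 and 5016 TPM of Hist2h3b. In lineage L21, released between 4.38 and 5.10 h, the values were 1940, 2168, 2352 and 4007 TPM. At the low end, the 2 cells of lineage L8, 10.3 h after division, were both at 0 TPM, and the 4 cells of lineage L10 had 0, 8.86, 32.6 and 77.8 TPM. These lineages were picked from both ends of the values, so the lack of overlap between high and low ones follows from the choice. Others held both kinds of cell, as lineage L4 with 64, 287, 1138 and 3146 TPM and lineage L17 with 118, 142 and 2023 TPM. In L4 the lower cells were at 2.79 and 2.81 h after division and the higher at 4.42 and 4.45 h. In L17 the lower were at 5.15 and 5.17 h and the higher at 6.10 h. Sisters of lineage L1, at 4.66 and 4.68 h, had 609 and 3548 TPM. The part of hours in the mixed lineages was not tested. Of the 24 lineages, 4 had all cells above 1000 TPM of Hist2h3b, 11 had none and 9 were mixed.

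Of the 20 members called in L1210 cells, sisters were closer than cousins in 14 and cousins closer in 6, and of the 11 called in CD8+ T-cells in 5 and 6. In L1210 cells 38 sister pairs differed in Hist2h3b by 0.93 on average in ln(TPM + 1), 62 cousin pairs by 1.54 and 3140 unrelated pairs by 2.48. The correlation between sisters was 0.85 and that between cousins 0.56, where pairs of a lineage share cells. For the sum over all members the mean differences were 0.56, 0.95 and 1.52. In CD8+ T-cells Hist2h3b differed by 1.11 between 43 pairs of sisters, 1.10 between 72 pairs of cousins and 1.58 between unrelated cells. The sum over all members differed there by 0.52, 0.60 and 0.85. For Hist1h2ao in CD8+ T-cells the order was 0.68, 1.00 and 1.28.

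The rest of the 20 members came from every class. Hist1h2ao had an intraclass correlation of 0.60 and the eighth lowest p (adjusted p = 2.03e-07). The other H2A genes called were Hist1h2ab at 0.48, Hist1h2ac at 0.37, Hist2h2aa1 at 0.32, Hist3h2a at 0.29 and Hist1h2ah at 0.24. Of H3 genes, Hist1h3b reached 0.49, Hist2h3c1 and Hist1h3c 0.44 and Hist1h3d 0.25. The H1 genes were Hist1h1d at 0.49, Hist1h1e at 0.39 and Hist1h1c at 0.29, the H2B genes Hist1h2bc at 0.47, Hist2h2bb at 0.42 and Hist2h2be at 0.27, and the H4 genes Hist2h4 at 0.47 and Hist1h4d at 0.30. In the Hist2 cluster 7 of 8 tested members were called, and in the lower Hist1 stretch 2 of 13. With hours and their square as covariates 17 of the 20 were still called, without lineage L11 18, and with detected genes as covariate 14. The share of all genes given for L1210 cells belongs to the fit on all lineages without covariates and is no background for these counts.

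**Figure D4:**
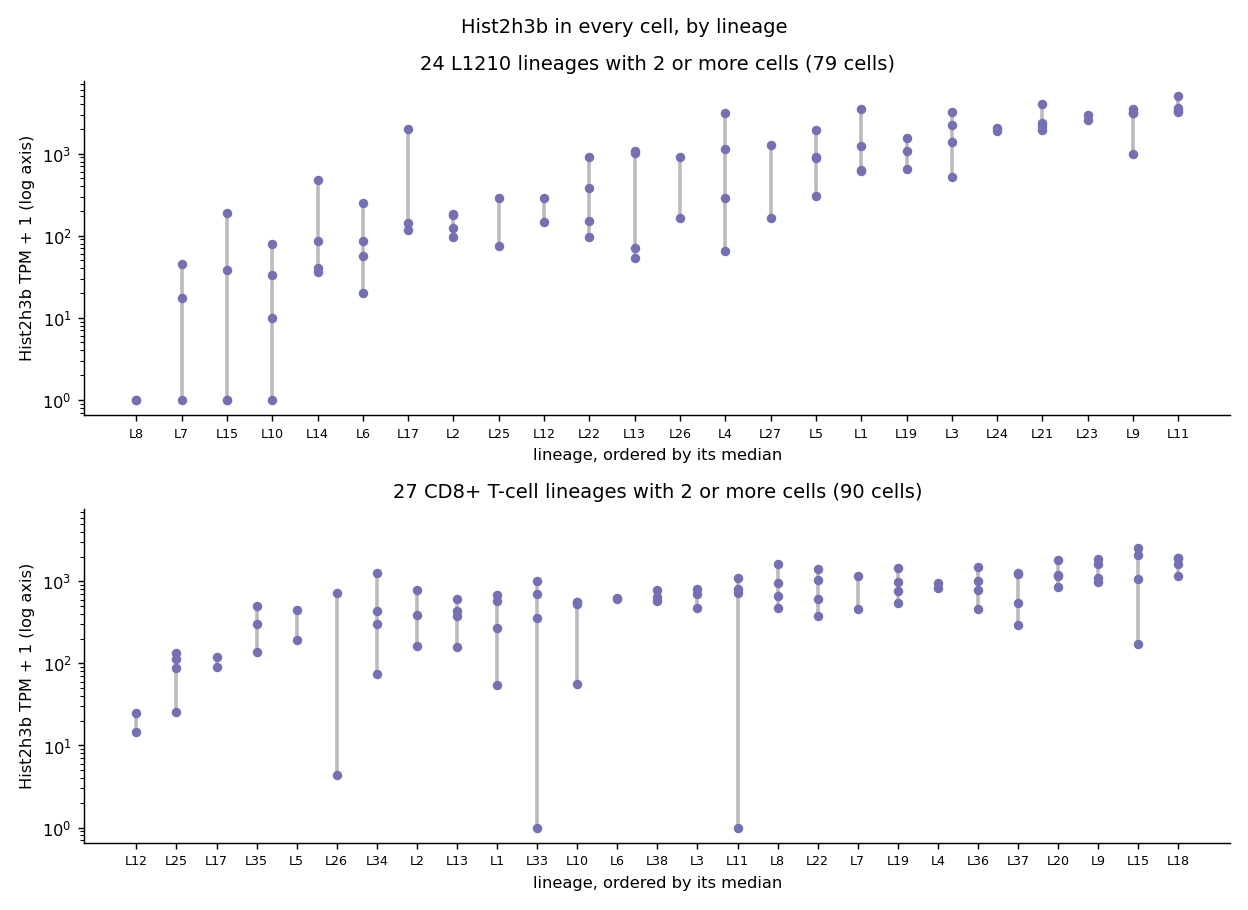
Hist2h3b as TPM + 1 (log axis) in every cell of the 24 L1210 lineages (top) and 27 CD8+ T-cell lineages (bottom) with at least 2 cells, 1 point a cell, a grey bar from lowest to highest in each lineage, lineages ordered by median and cells at 0 TPM drawn at 1. L1210 lineages run from L8, with both cells at 0, to L11, with all 4 between 3254 and 5016 TPM, while most CD8+ T-cell lineages overlap.

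In CD8+ T-cells 11 of 52 members were called, beside 12.9% of 9997 genes, and the median intraclass correlation was 0.12 over members and 0.09 over all genes. The most alike were the H2A genes Hist1h2ap and Hist1h2ao, with intraclass correlations of 0.38 and 0.37 and adjusted p values of 3.56e-04 and 4.71e-04. Next came the H2A genes Hist1h2ae at 0.32 and Hist1h2an at 0.29, the H1 gene Hist1h1d at 0.29, the H3 genes Hist2h3c2 at 0.27, Hist1h3a at 0.25, Hist1h3b at 0.25 and Hist2h3b at 0.23, and the H4 genes Hist1h4i at 0.26 and Hist1h4m at 0.24. No H2B gene of the 11 tested was called. With hours and their square as covariates 5 of the 11 remained, and neither Hist2h3b (adjusted p = 0.144) nor Hist2h3c2 (adjusted p = 0.259) did. The 12.9% of all genes belongs to the fit without covariates and is no background for this count.

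Hist1h1d, Hist1h2ao, Hist1h3b, Hist2h3b and Hist2h3c2 were called in both cell types. They were 5 of the 20 called in L1210 cells and 45.5% of those called in CD8+ T-cells. The share of all genes called in both is not given, so this overlap is not a result about the members. Hist1h2ap, with 0.38 in CD8+ T-cells, was at 0.01 in L1210 cells. A difference in likeness between the cell types was not tested.

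**Figure D5:**
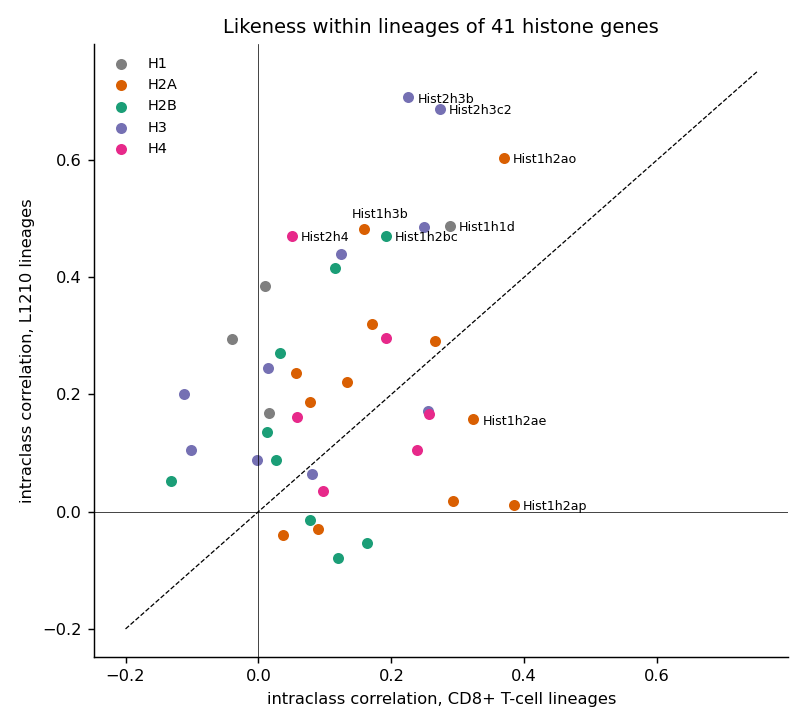
Intraclass correlation of 41 histone genes tested in both cell types, CD8+ T-cell lineages (horizontal) against L1210 lineages (vertical), coloured by class, with a dashed line of equality. Of these genes 28 lie above the line, Hist2h3b and Hist2h3c2 highest, and Hist1h2ap lies well below it.

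The genes most like the histone sum over cells were named by Spearman's rho among all genes that entered the fits, as a description over cells that share lineages and depth. In 81 L1210 cells they were Top2a, which relieves DNA torsion, at 0.614, Pcna, the sliding clamp of DNA polymerase, at 0.602, Ppia at 0.602, Tipin, a replication fork protein, at 0.60, and Esco2, which acetylates cohesin in S phase, at 0.582. In 97 CD8+ T-cells they were lower, with Cinp at 0.423, Esco2 at 0.413, Aimp2 at 0.403, Secisbp2 at 0.40 and Rbm25 at 0.394. The median over non-member genes was 0.0721 and -0.0374. The summed TPM of 18 S phase genes had a rho of 0.559 with the histone sum in L1210 cells and -0.0672 in CD8+ T-cells, and 14 genes of mitosis 0.200 and -0.292. Top2a belongs to the mitosis list. Single genes of that list ran from -0.249 (Cdc20) to 0.614 (Top2a) in L1210 cells, with Cdk1 at 0.547 and Aurkb at 0.516. Those of the S phase list ran from 0.153 (Cdt1) to 0.602 (Pcna).

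In L1210 cells outside L11 the S phase sum was 1940 TPM at the median up to 3 h. It was 2758 TPM between 3 and 8 h and 1710 TPM later, and in the 4 cells of L11 it ran from 1751 to 2894 TPM. The mitosis sum was 1121, 1178 and 1618 TPM over those windows.

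Genes that make or handle histone mRNA and protein were read from fixed lists. Their counts stand beside the 63.6% of all genes that were called between the cell types. Of 5 factors of histone gene transcription all 5 were called. Casp8ap2 and Gon4l were higher in CD8+ T-cells, by 0.59 and 0.48 on the ln scale, while Npat, the coactivator that cyclin E-CDK2 acts on, at -0.75, Hinfp at -0.84 and Yy1 at -1.06 were higher in L1210 cells. Of 12 genes of histone mRNA 3′ processing 6 were called. Slbp, which binds the stem-loop, was higher in CD8+ T-cells by 1.04 ± 0.20 (SE, adjusted p = 1.11e-05). Sympk, Cpsf2, Cstf2, Ncbp2 and Ncbp1 were higher in L1210 cells, at -1.14, -0.79, -0.54, -0.53 and -0.53. Of 11 chaperone and import genes 5 were called. Hat1 at 0.59 and Rbbp7 at 0.42 were higher in CD8+ T-cells and Asf1a at -1.52, Ipo4 at -1.45 and Nap1l1 at -0.23 in L1210 cells.

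Histone variants that are made outside S phase formed a list of 10, of which 8 were tested and 5 called. H2afv at 0.83, H2afj at 0.51 and H2afz at 0.50 were higher in CD8+ T-cells, and H2afy at -1.39 and H2afx at -0.79 in L1210 cells. Of the S phase genes 10 of 18 were higher in CD8+ T-cells and 0 were higher in L1210 cells, among them Pcna at 0.99 and Cdc6 at 1.03. Of 14 mitosis genes, Top2a, Ccnb2 and Cdk1 were higher in CD8+ T-cells, at 1.05, 0.89 and 0.83, and Bub1b in L1210 cells, at -0.71.

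With hours since division, 0 genes of the transcription, processing, chaperone and variant lists were called in either cell type. Ccne2, a cyclin of S phase entry, fell by 0.36 per hour in CD8+ T-cells (adjusted p = 0.0265, n = 31 lineages), and the mitotic kinase Cdk1 rose by 0.26 per hour (adjusted p = 0.0276). In the curved fit in CD8+ T-cells Ccne2, Cdk1 and Aurkb, another mitotic kinase, were called. Likeness within L1210 lineages was called for 5 of the 11 chaperone genes, with Asf1b at an intraclass correlation of 0.48 and Hat1 at 0.41. It was also called for Slbp at 0.39 and Cpsf2 among 11 processing genes tested, for H1f0 and H2afz among 8 variants, for 10 of 18 S phase and 12 of 14 mitosis genes, and for 0 of 5 transcription factors. In CD8+ T-cells the counts were 0 of 11 chaperone, 0 of 12 processing, 0 of 8 variant, 1 of 5 transcription (Yy1), 6 of 18 S phase and 10 of 14 mitosis genes.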

How the data were processed

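Per the labels and methods, the authors aligned 30-base paired reads to mm10 (the submitters' processing notes list TopHat2), estimated expression with RSEM 1.2.3 and deposited TPM, scaled to 1000000 per library, for 194 libraries. RSEM shares reads between near-identical genes by estimation. From these TPM, lineages were built from the sister and cousin labels, and ln(TPM + 1) was fitted over all genes with limma 3.58.1 (trended variances) in R 4.3.3, on lineage means or, for likeness, as a moderated F over lineages on cells, with Benjamini-Hochberg adjustment. The fits were tested on simulated data. Positions, transcripts and the stem-loop search used GENCODE M21, in which all 68 genes were found. Python 3.11.15, pandas 2.3.3, scipy 1.17.1 and matplotlib 3.10.9 were used. Named genes were members called in any comparison, the 3 of highest mean per class, Hist2h3b and Hist2h3c2, the 5 non-members per cell type most like the member sum, and genes of the lists called for hours or cell type, and list genes named for likeness within lineages were chosen after their values were seen. Members and lists were chosen with earlier results of these data known. Alternatives were another pseudocount (0.1 and 10 TPM), no filter, at least 4000 detected genes, covariates, TPM rescaled without the ribosomal precursor Rn45s, a random lineage block, times up to 10 h, and cells, lineages or weights left out or changed.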

Additional observations from a re-analysis of the deposited data

How the results depend on the processing

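The comparisons of cell types, of straight slopes, of slopes between cell types and of likeness in L1210 cells kept counts of called members within 1.5 times under every alternative run, 21 to 26 of the members tested for cell type and 14 to 20 for likeness in L1210 cells. The curved relation to hours in CD8+ T-cells, with 0 members called, gave 1 with detected genes as covariate and 1 after rescaling without Rn45s (Hist1h2ao in both), and 2 with lineage as a random block and 2 with lineages weighted by their number of cells (Hist1h2ao and Hist2h3c2 in both, the weights chosen after seeing the data), and the cause was not tested. Likeness in CD8+ T-cells fell from 11 members to 5 with hours and hours squared as covariates, and stood between 8 and 11 otherwise. The shares of all genes called under each alternative are not given beside these counts. Hist1h3d lost its call between cell types in 4 alternatives, among them without lineage L11, and likeness in L1210 lineages without L11 lost Hist1h3d and Hist2h2be. No called member changed the sign of its difference between cell types under any of these alternatives. With times up to 10 h, 15 members had an unadjusted p under 0.05 for the straight slope in L1210 cells, against 1 over all times, and 0 were called, where 404 of 10536 genes had such a p. No paired analysis was possible because the cell numbers that both cell types share name separate cells and mark no common mouse, culture or day. Zeros of low genes, shared reads between copies, read depth, which TPM do not keep, and the small number of lineages at the latest times limit single members.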

Other observations

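The 6 libraries recorded as doublets, left out above, also held histone transcripts. The 4 CD8+ T-cell doublets, released between 0.2 and 0.55 h after division, summed to 389, 507, 511 and 1577 TPM over the members. The L1210 doublet at 1.27 h summed to 3731 TPM and the other, at 7.06 h, to 5823 TPM. Of the 10 libraries under 1000 detected genes, 8 had all members at 0. The others, with 714 and 399 detected genes, held 5 and 3 members above 0 that summed to 6914 and 25263 TPM.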
